A study of Mus musculus with 6 samples.

Results

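The collagen genes were followed here across 3 keratinocyte populations sorted from the back skin of mice. The assay was ATAC-seq, which marks stretches of chromatin that a transposase can reach. The members were the 44 protein-coding genes whose symbols read Col, number, a, number, and the regions nearest to them. A region is a stretch of overlapping peaks from any of the 6 libraries, and it was given to the nearest protein-coding gene span within 50 kb (mm10). Of 75738 regions in all, 62802 were given to a protein-coding gene and 259 of these to a collagen gene. Of the collagen genes, 40 had at least 1 region, while Col10a1, Col11a1, Col20a1 and Col5a3 had none. The basement membrane class held 103 regions at 10 genes, the fibrillar class 52 regions at 9 of 11 genes and the other collagens 104 regions at 21 of 23 genes.

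Touch dome (TD) keratinocytes, which surround the mechanosensory Merkel cells, carried EPCAM, SCA1, integrin α6 and the tdTomato reporter in the sort. Cells of the interfollicular epidermis (IFE) carried the same 3 surface proteins and lacked the reporter. Hair follicle (HF) cells carried EPCAM and integrin α6 and lacked both SCA1 and the reporter. The mice of all groups were TNC-CREER; tdTomato on a C57BL/6 background. Their tamoxifen dose was 100 µg for each gram of weight, injected at P51 and again at P52, and skin was taken at P60. The reporter marks cells in which the tenascin-C gene drove the Cre, and their descendants. Each population had 2 libraries of 50000 sorted cells, and no label names the animals behind them, so p-values measure only the spread between these libraries, which may be technical.

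Collagens are triple-helical proteins of the extracellular matrix. Keratinocytes secrete or anchor several of the basement membrane kinds: type IV collagen forms its network, type VII the anchoring fibrils beneath it, and collagen XVII spans the membrane of basal keratinocytes at hemidesmosomes. Fibrillar collagens such as types I, III and V build the rope-like fibers of the dermis and are mostly products of fibroblasts. The other collagens include type VI beaded filaments, the FACIT collagens that sit on fibrils, and transmembrane forms.

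The libraries held 50153 and 59250 peaks in TD, 52219 and 51124 in IFE, and 54844 and 57131 in HF. No read counts or peak heights were used, so sequencing depth is unknown, and absence of a peak is a failure to call one, not proof of closed chromatin. A peak list of a mixed sample also cannot tell a smaller share of cells with open DNA from weaker opening in every cell. Of the 4 keratinocyte genes examined (Krt5, Krt14, Trp63 and Cdh1), each had regions with a peak in every library. Tnc, which drove the reporter, had a peak at 17 and 17 of its 17 regions in TD, 11 and 11 in IFE, and 13 and 12 in HF.

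Promoter sequences of 5 collagen genes are shown first because peaks over their windows fall in different patterns: Col1a2 and Col6a2 had a peak over the window in both TD and both HF libraries and in neither IFE library, Col4a4 in both HF libraries alone, Col19a1 in both IFE libraries alone, and Col17a1 in all 6. At Col19a1 this holds for the window only, since peaks of other libraries lie just beside it, and Col6a2 has a second window, not printed, at which the TD libraries disagreed. Each is the RefSeq window of 300 bases (GRCm38.p6, the assembly behind mm10), written 5′ to 3′ on the gene's strand. It runs from 250 bases before an annotated start to 50 after it. That start is the start of the gene span at Col1a2 and Col17a1, but lies inside the span at Col6a2, Col4a4 and Col19a1. At Col6a2 the window not printed is the one at the start of the span. The windows are chr6:4505368-4505667 (plus strand) for Col1a2, chr10:76623355-76623654 (minus) for Col6a2, chr1:82586800-82587099 (minus) for Col4a4, chr1:24587388-24587687 (minus) for Col19a1 and chr19:47691993-47692292 (minus) for Col17a1. Capitals mark matches, on either strand, to 6 motifs chosen after the peak states were seen: AP-1 (TGANTCA), RUNX (TGTGGT), an NFI half-site (TTGGCA), the CCAAT box (CCAAT), the GC box (GGGCGG) and the TATA box (TATAAA).
Col1a2: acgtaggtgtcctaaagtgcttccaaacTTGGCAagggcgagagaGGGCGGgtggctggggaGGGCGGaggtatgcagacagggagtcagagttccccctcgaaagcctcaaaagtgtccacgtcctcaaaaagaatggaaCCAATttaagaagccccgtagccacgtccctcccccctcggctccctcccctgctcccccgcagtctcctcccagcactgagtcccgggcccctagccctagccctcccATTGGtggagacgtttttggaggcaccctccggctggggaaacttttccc
Col6a2: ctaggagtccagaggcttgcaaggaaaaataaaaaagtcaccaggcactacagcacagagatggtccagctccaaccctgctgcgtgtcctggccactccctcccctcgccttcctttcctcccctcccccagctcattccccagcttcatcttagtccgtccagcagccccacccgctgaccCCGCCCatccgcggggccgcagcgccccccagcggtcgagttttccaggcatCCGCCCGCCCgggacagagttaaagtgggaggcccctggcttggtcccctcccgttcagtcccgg
Col4a4: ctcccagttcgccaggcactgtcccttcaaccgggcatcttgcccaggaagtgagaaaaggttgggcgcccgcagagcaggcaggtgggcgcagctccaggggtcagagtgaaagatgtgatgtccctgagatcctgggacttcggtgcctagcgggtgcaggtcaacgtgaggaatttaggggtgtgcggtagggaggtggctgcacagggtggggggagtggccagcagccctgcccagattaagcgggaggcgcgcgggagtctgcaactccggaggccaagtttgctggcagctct
Col19a1: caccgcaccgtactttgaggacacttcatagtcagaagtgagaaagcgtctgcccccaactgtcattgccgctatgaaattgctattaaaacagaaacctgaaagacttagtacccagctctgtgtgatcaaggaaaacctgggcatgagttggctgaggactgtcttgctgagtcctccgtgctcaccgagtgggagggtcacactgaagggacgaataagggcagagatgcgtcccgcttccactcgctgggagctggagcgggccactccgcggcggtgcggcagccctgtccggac
Col17a1: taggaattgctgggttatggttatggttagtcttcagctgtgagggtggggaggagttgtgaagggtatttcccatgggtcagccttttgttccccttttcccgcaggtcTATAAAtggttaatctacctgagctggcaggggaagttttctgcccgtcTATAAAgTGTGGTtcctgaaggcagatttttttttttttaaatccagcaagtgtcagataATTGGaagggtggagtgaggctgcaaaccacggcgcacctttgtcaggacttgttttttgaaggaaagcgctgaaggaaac
Matches to the NFI half-site and to a reversed CCAAT box can share bases, and 2 of the GC boxes of Col6a2 overlap. The Col1a2 window held 2 CCAAT boxes, 2 GC boxes and 1 NFI half-site, and the Col6a2 window 3 GC boxes. Col17a1 held 2 TATA boxes, 1 CCAAT box and 1 RUNX match, and its GC content was 46.3%, against 61.0% in Col1a2, 64.3% in Col6a2, 63.3% in Col4a4 and 56.3% in Col19a1. The Col4a4 and Col19a1 windows held none of the 6 motifs, which says only that these letters are not in these windows. Over 21263 promoter windows of protein-coding genes, 46.2% held the GC box, 38.2% the CCAAT box, 15.0% the RUNX letters, 13.1% the NFI half-site, 12.6% the TATA box and 6.99% the AP-1 letters.

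Across all collagen regions, peaks were on average most frequent in HF and least frequent in IFE. A peak was present at 147 and 188 of the 259 regions in TD, 146 and 134 in IFE, and 186 and 192 in HF. As shares these were 56.8% and 72.6% in TD, 56.4% and 51.7% in IFE, and 71.8% and 74.1% in HF. Over all 62802 regions given to protein-coding genes the shares were 66.5% and 78.4% in TD, 71.2% and 68.7% in IFE, and 72.4% and 74.8% in HF. The collagen shares of both IFE libraries therefore lay below those of both HF libraries, while TD replicate 2, the library with the most peaks, reached the HF values and TD replicate 1 did not. The mean difference was 10.6 percentage points between TD and IFE, with no overlap of the libraries, -8.30 between TD and HF, with overlap, and -18.9 between IFE and HF, with no overlap. Two-sided exact permutation tests over the libraries (n = 2 each) gave p = 0.333, 0.667 and 0.333 in that order of comparisons, and 0.333 is the smallest p this design allows. Over all gene-assigned regions IFE minus HF was -3.66 points, also with no overlap and an exact permutation p of 0.333, so only the size differed for the collagens. Without TD replicate 2 the difference between TD and IFE was 2.76 points, and without TD replicate 1 that between TD and HF was -0.386 points. With the wider 50% of peaks the difference between TD and IFE was 2.24 points (exact permutation p = 1.00), and with a peak cover of 50% it was 6.37 (exact permutation p = 1.00).

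The plot of shares by class gives these values for each class of collagen. At fibrillar collagen genes a peak was present at 28 and 35 of 52 regions in TD, 19 and 17 in IFE, and 44 and 49 in HF, so the populations did not overlap and TD lay between the others. The mean shares were 60.6% ± 9.52 in TD, 34.6% ± 2.72 in IFE and 89.4% ± 6.80 in HF (SD, n = 2 each). Basement membrane collagen regions had a peak at 64 and 79 of 103 in TD, 62 and 62 in IFE, and 82 and 80 in HF, again with no overlap. Their means were 69.4% ± 10.3 in TD, 60.2% ± 0 in IFE and 78.6% ± 1.37 in HF (SD, n = 2 each). The other collagens had a peak at 55 and 74 of 104 regions in TD, 65 and 55 in IFE, and 60 and 63 in HF, and all 3 populations overlapped. For both the fibrillar and the basement membrane class each of the 3 comparisons gave an exact permutation p of 0.333, and for the other collagens each gave 1.00 (two-sided, n = 2 libraries each). With the wider 50% of peaks the fibrillar difference between TD and IFE was 5.36 percentage points (exact permutation p = 1.00), against 26 with all peaks.

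**Figure D1:**
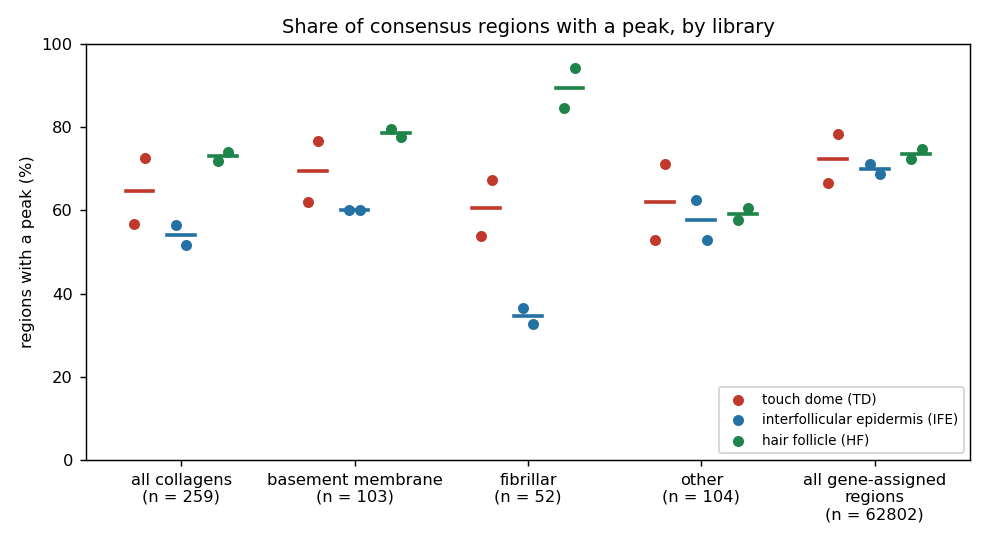
The share of consensus regions with a peak (y axis, percent) is plotted for each library (points) and as the mean of the 2 libraries (short lines) in TD, IFE and HF, for all collagens, the 3 classes and all gene-assigned regions. Fibrillar collagen regions spread from 32.7% in IFE replicate 2 to 94.2% in HF replicate 2, while over all gene-assigned regions the libraries lay between 66.5% and 78.4%.

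The same peak calls were also sorted by the populations in which each region was open, which describes the shares in another way. A region is called open in a population where both libraries had a peak and closed where neither had. Of the 259 collagen regions 80 had a peak in all 6 libraries (30.9%), against 48.2% of all gene-assigned regions. Among the rest, 29 were open in HF alone (background 6.22%), and 25 were open in TD and HF and closed in IFE (background 3.28%). Another 14 were open in TD and IFE and closed in HF (background 6.31%), 4 in IFE alone (1.22%), 2 in TD alone (0.967%) and none in IFE and HF with TD closed (0.336%). In the other 105 (40.5%, background 33.5%) the 2 libraries of at least 1 population disagreed. The fibrillar class held 10 of the HF regions and 10 of those shared by TD and HF, each 19.2% of its 52 regions. The other collagens held 12 of the 14 regions shared by TD and IFE.

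The fibrillar genes were the most uneven between IFE and HF. Col24a1, which encodes a minor fibrillar chain, had 10 regions on chromosome 3 (gene span 145292472 to 145552013). A peak was present at 4 and 6 of them in TD, 1 and 1 in IFE, and 10 and 10 in HF. The region that IFE libraries shared with the rest lay inside the gene, and the other 9 were open in HF and closed in IFE. Of 4140 genes with at least 5 regions, 2 had a share of such regions as high as the 90.0% of Col24a1, itself included. No library had a peak over its promoter window.

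Col5a2, which encodes a chain of type V collagen, the regulator of fibril diameter, had 5 regions on chromosome 1 (45374331 to 45503282). A peak was present at 2 and 2 of them in TD, none in either IFE library, and 4 and 5 in HF. The region at its upper end, chr1:45502061-45503393, was covered by peaks over 391 and 736 bp in TD, 0 and 0 bp in IFE, and 1130 and 1209 bp in HF. Col5a1, the gene of the partner chain (chromosome 2, 27886381 to 28039510), had a peak at 7 and 8 of 13 regions in TD, 6 and 6 in IFE, and 11 and 12 in HF. Its promoter window had a peak in all 6 libraries, so the difference lay at other regions: 4 were open in HF and closed in IFE and none the reverse. These 4 were 30.8% of its regions (background 12.8%), a share reached by 597 of the 4140 genes.

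The genes of type I collagen, the main fibril protein of the dermis, followed the same order. Col1a2 had 2 regions, and both were open in TD and HF and closed in IFE. Over the region that holds its gene start, chr6:4505287-4506450, whose promoter sequence is printed above, peaks covered 526 and 939 bp in TD, 0 and 0 bp in IFE, and 1134 and 1164 bp in HF. Over the upstream region chr6:4483417-4484635, centred at -21592 bp from the gene start, they covered 538 and 403 bp in TD, 0 and 0 bp in IFE, and 1219 and 993 bp in HF. Col1a1 (chromosome 11, 94936224 to 94953042) had a peak at 3 and 4 of 4 regions in TD, 2 and 1 in IFE, and 4 and 4 in HF. The region inside the gene had a peak in every library, so Col1a1 was not closed in IFE throughout.

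Of the remaining fibrillar genes, Col27a1 (chromosome 4) had a peak at 6 and 9 of 12 regions in TD, 6 and 6 in IFE, and 7 and 10 in HF, with 1 region open in IFE and closed in HF and 4 the reverse. These 4 were 33.3% of its regions, a share reached by 569 of the 4140 genes. Col3a1, the gene of the fibril protein of stretchable tissues, had a single region, chr1:45299361-45300317, centred at -11698 bp from its start, with peaks of 774 and 790 bp in HF and none in TD or IFE. Its promoter window had no peak in any library. Col2a1 had 3 regions and Col11a2 had 2, and peaks were present in every population: Col2a1 had 1 region open in HF alone and 2 open in all 6 libraries, and no Col11a2 region was open in one population and closed in another.

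Counted over the fibrillar class, 10 of 52 regions were open in TD and closed in IFE (19.2%, background 4.48%) and none the reverse (background 1.82%). Between TD and HF, 1 was open in TD and closed in HF (1.92%, background 8.02%) and 10 the reverse (19.2%, background 7.26%). Between IFE and HF, 1 was open in IFE and closed in HF (1.92%, background 9.91%) and 27 the reverse. These 27 were 51.9% of the fibrillar regions, against 12.8% of all gene-assigned regions, and they fell in 8 of the 9 genes with regions. Without Col24a1 the counts between IFE and HF were 1 and 18, and those between TD and HF were 1 and 6. With the wider 50% of each library's peaks, 0 fibrillar regions remained open in TD and closed in IFE, and 9 were closed in IFE and open in HF. Leaving out a library loosens the rule for its population: without TD replicate 1 the fibrillar count open in TD and closed in IFE was 16, and without TD replicate 2 the count closed in TD and open in HF was 17. The count closed in TD and open in IFE was 1 without TD replicate 2 or without IFE replicate 2. That open in IFE and closed in HF was 2 without IFE replicate 2 or HF replicate 2, and that open in TD and closed in HF was 2 without HF replicate 2.

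Fibroblasts are the usual makers of fibrillar collagen, and are usually EPCAM negative. The 9 fibroblast markers examined, none of them a collagen, had 43 regions at 7 genes, with a peak at 25 and 31 in TD, 26 and 23 in IFE, and 27 and 28 in HF. Of these regions, 5 were open in IFE and closed in HF (11.6%, background 9.91%) and 8 the reverse (18.6%, background 12.8%). Pdgfrb and Lum had no region in any library. Pdgfra had a peak at 3 and 4 of 7 regions in TD, 3 and 2 in IFE, and 7 and 6 in HF, and Twist2 at 0 and 0 of 2 in TD, 0 and 0 in IFE, and 1 and 2 in HF. Dpt went the other way, with 5 and 6 of 9 in TD, 6 and 5 in IFE, and 2 and 3 in HF. Fbln1, with the most regions, had a peak at 10 and 13 of 15 in TD, 10 and 10 in IFE, and 12 and 10 in HF. Thy1 had a peak at 5 and 6 of 8 in TD, 6 and 5 in IFE, and 5 and 6 in HF. The single Dcn region had a peak in both TD libraries and no other. That of Mfap5 had a peak in every library but HF replicate 1. Melanocyte markers had a peak at 20 and 25 of 29 regions in TD, 16 and 17 in IFE, and 23 and 24 in HF, mostly at Mitf, while Tyr and Kit had no region. Of these 29 regions, 1 was open in IFE and closed in HF (3.45%, background 9.91%) and 9 the reverse (31.0%, background 12.8%), 8 of them at Mitf. Between TD and IFE, 6 were open in TD and closed in IFE (20.7%, background 4.48%) and 0 the reverse (background 1.82%). Endothelial and mural markers had a peak at 20 and 21 of 31 regions in TD, 22 and 23 in IFE, and 23 and 23 in HF, with no region at Cdh5, Kdr or Rgs5. Immune markers had only 2 regions, with a peak at 2 and 2 in TD, 1 and 1 in IFE, and 0 and 0 in HF. Schwann markers had a peak at 4 and 4 of 4 regions in TD, 4 and 3 in IFE, and 3 and 3 in HF. Merkel cell markers had a peak at 1 and 2 of 3 regions in TD, 3 and 1 in IFE, and 1 and 1 in HF. The part of other cell types in the collagen result was not tested.

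**Figure D2:**
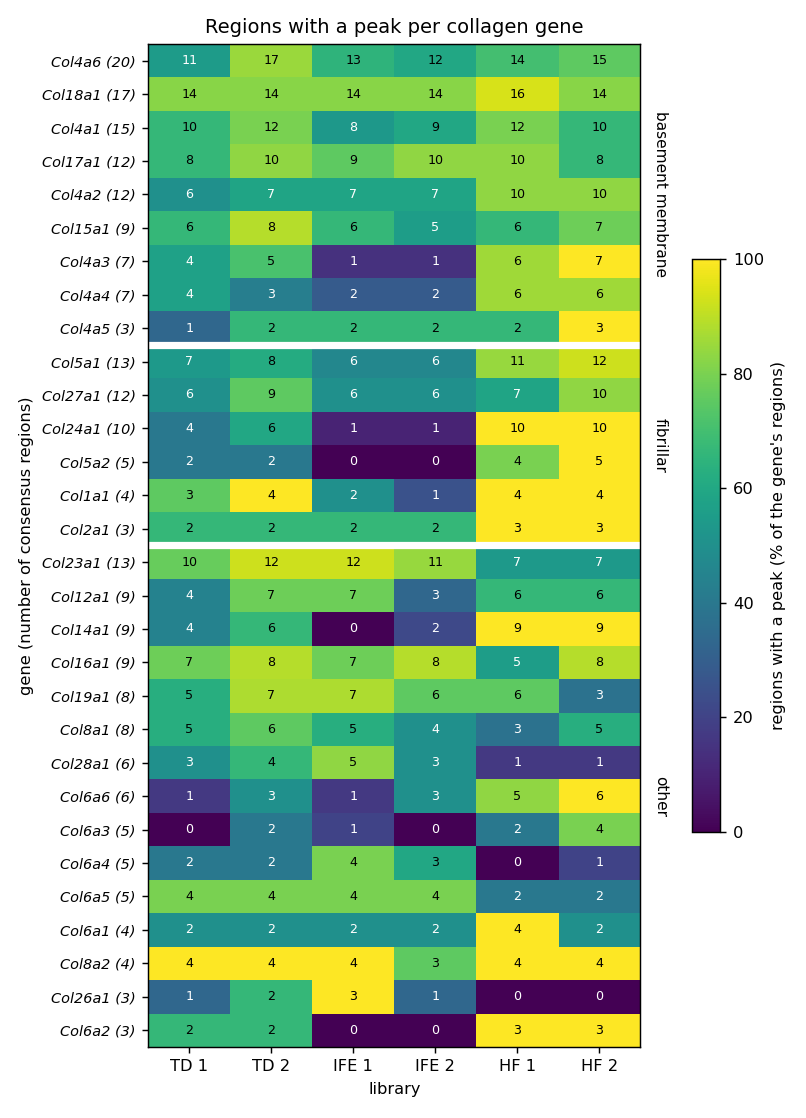
For each collagen gene with at least 3 regions (rows, total in brackets) the number of regions with a peak is written in each library (columns), and colour gives it as a percent of the gene's regions. Col24a1, Col5a2, Col14a1 and Col4a3 were dark in IFE and bright in HF, with 10 and 10 of 10 regions at Col24a1 in HF, while Col17a1 and Col18a1 had similar counts in every library.

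Among basement membrane collagens, 7 genes had more regions open in HF and closed in IFE than the reverse, namely the 6 type IV genes and Col15a1, and Col17a1, Col18a1 and Col7a1 had none either way. This tally of genes has no background over all genes. Col17a1, the hemidesmosomal collagen gene (chromosome 19, 47646341 to 47692042), had a peak at 8 and 10 of 12 regions in TD, 9 and 10 in IFE, and 10 and 8 in HF. None of its regions was open in one population and closed in another, and 7 were open in all 6 libraries, among them the region over its promoter, where peaks covered 1046 and 2045 bp in TD, 1109 and 1113 bp in IFE, and 1587 and 2205 bp in HF. Col18a1, whose product is cut to release endostatin, had a peak at 14 and 14 of 17 regions in TD, 14 and 14 in IFE, and 16 and 14 in HF, with none open in one population and closed in another. Both of its promoter windows had a peak in every library.

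Col7a1, the anchoring fibril gene (chromosome 9, 108953586 to 108984875), had the least: a single region of 372 bp inside the gene, with a peak in TD replicate 2 and in no other library. No library had a peak over its promoter window, chr9:108953336-108953635. Col15a1, which encodes a multiplexin of the basement membrane zone, had a peak at 6 and 8 of 9 regions in TD, 6 and 5 in IFE, and 6 and 7 in HF. It had 2 regions open in HF and closed in IFE (22.2%, a share reached by 927 of the 4140 genes) and none the reverse. It held 1 of the 2 collagen regions open in TD alone, at chr4:47278621-47279767, where peaks covered 729 and 1147 bp in TD.

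Type IV genes lie in head-to-head pairs, and the pairs differed. Col4a1 and Col4a2, the pair whose chains form the network of nearly all basement membranes, had a peak over both promoter windows in all 6 libraries. Col4a1 had a peak at 10 and 12 of 15 regions in TD, 8 and 9 in IFE, and 12 and 10 in HF. Col4a2 had a peak at 6 and 7 of 12 regions in TD, 7 and 7 in IFE, and 10 and 10 in HF, with 3 regions open in HF alone (background 6.22%). Col4a5 and Col4a6, on the X chromosome, likewise had a peak over both promoter windows in all 6 libraries. Col4a6, the collagen gene with the most regions, had a peak at 11 and 17 of 20 in TD, 13 and 12 in IFE, and 14 and 15 in HF. Between IFE and HF, 3 of its regions were open in IFE and closed in HF and 6 the reverse. These 6 were 30.0% of its regions, a share reached by 626 of the 4140 genes.

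Col4a3 and Col4a4, whose chains form the specialised network known from kidney and lung basement membranes, had the highest shares of regions open in HF and closed in IFE among the type IV genes with at least 5 regions. Their shared start region on chromosome 1, chr1:82586590-82587463, had peaks of 717 and 868 bp in HF and none in TD or IFE. The Col4a4 promoter printed above lies within it. Col4a3 had a peak at 4 and 5 of 7 regions in TD, 1 and 1 in IFE, and 6 and 7 in HF. Col4a4 had a peak at 4 and 3 of 7 regions in TD, 2 and 2 in IFE, and 6 and 6 in HF. Each had 5 regions open in HF and closed in IFE (71.4%), a share reached by 34 of the 4140 genes with at least 5 regions, these genes included. Across the spans of this pair TD had peaks inside the genes and none at the shared start.

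In the class as a whole 9 of 103 basement membrane regions were open in TD and closed in IFE (8.74%, background 4.48%) and 1 the reverse (0.971%, background 1.82%). Between TD and HF, 2 were open in TD and closed in HF (1.94%, background 8.02%) and 11 the reverse (10.7%, background 7.26%). Between IFE and HF, 6 were open in IFE and closed in HF (5.83%, background 9.91%) and 25 the reverse. The 25 lay in 7 of the 10 genes and made up 24.3% of the class, against a background of 12.8%. Without TD replicate 1 the count open in TD and closed in IFE was 18 and that open in TD and closed in HF 10, and without TD replicate 2 the reverse counts were 8 against IFE and 18 against HF. Without HF replicate 1 the count open in TD and closed in HF was 6 and that open in IFE and closed in HF 10, and without HF replicate 2 the first of these was 4. Without either IFE library the count closed in TD and open in IFE was 2.

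**Figure D3:**
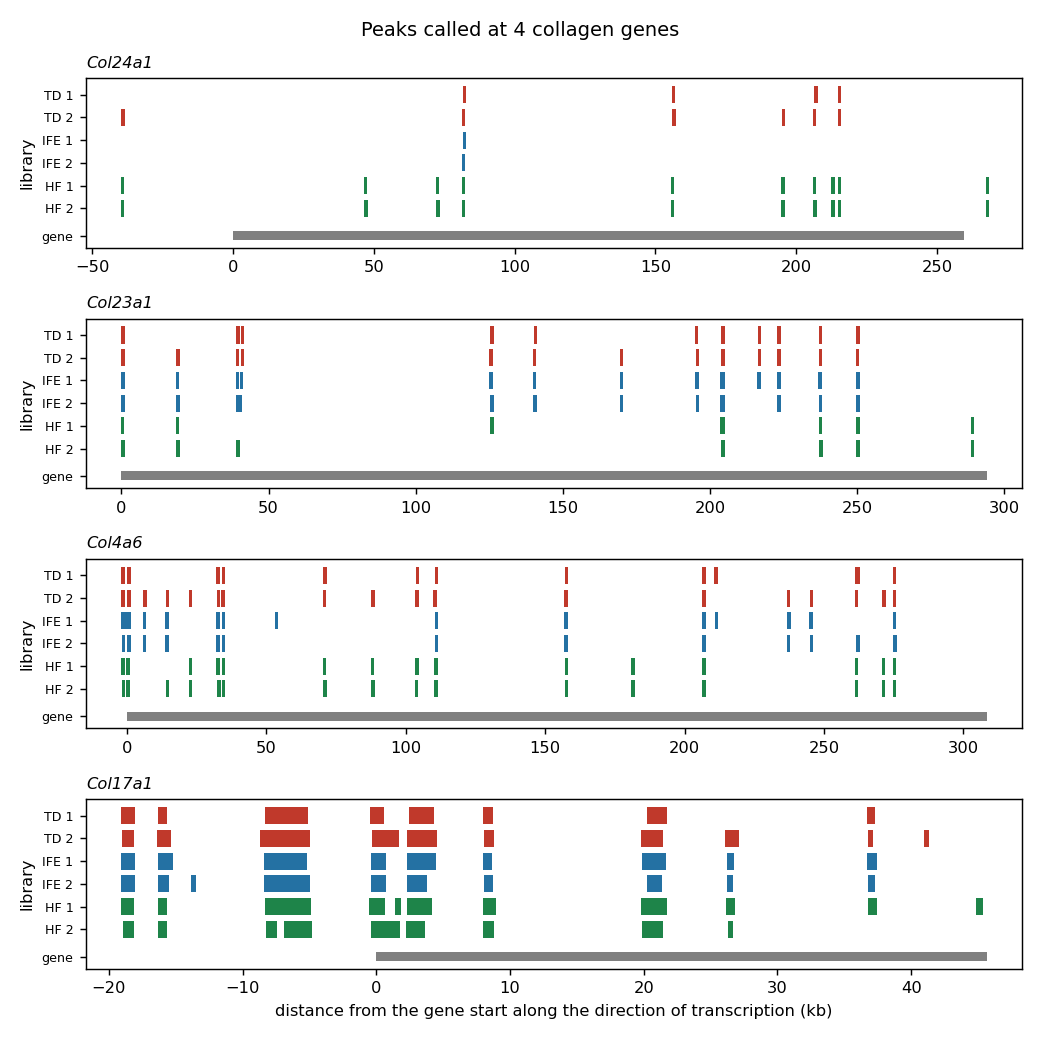
Peaks (coloured boxes) in each of the 6 libraries are drawn against distance from the gene start in kb, along the direction of transcription, for Col24a1, Col23a1, Col4a6 and Col17a1, with the gene span as a grey bar and very short peaks drawn at a minimum width. All 10 Col24a1 regions have peaks in both HF libraries and 1 in the IFE libraries, Col23a1 shows gaps in HF inside the gene, and the Col17a1 rows look alike.

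The other collagens held genes on both sides. Col14a1, a FACIT collagen gene of fibril surfaces (chromosome 15, 55307644 to 55520803), had a peak at 4 and 6 of 9 regions in TD, 0 and 2 in IFE, and 9 and 9 in HF. Of its regions 7 were open in HF and closed in IFE (77.8%), a share reached by 22 of the 4140 genes, itself included. At chr15:55307798-55309102, inside its lower end, peaks covered 0 and 0 bp in TD, 0 and 0 bp in IFE, and 656 and 1193 bp in HF. Col6a2, which encodes a type VI chain, had a peak at 2 and 2 of 3 regions in TD, 0 and 0 in IFE, and 3 and 3 in HF. Over its start region, chr10:76622750-76623694, peaks covered 479 and 537 bp in TD, 0 and 0 bp in IFE, and 945 and 923 bp in HF.

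On the opposite side, Col23a1, which encodes a transmembrane collagen (chromosome 11, 51289679 to 51583925), had a peak at 10 and 12 of 13 regions in TD, 12 and 11 in IFE, and 7 and 7 in HF. It had 4 regions open in TD and closed in HF and 4 open in IFE and closed in HF, with 1 the reverse in each comparison, and its promoter window had a peak in all 6 libraries. The 4 open in TD and closed in HF were 30.8% of its regions (background 8.02%), a share reached by 244 of the 4140 genes. The 3 Col23a1 regions shared by TD and IFE lay inside the gene, centred 140351, 195454 and 223356 bp after the start. At the last of these, peaks covered 1024 and 1236 bp in TD, 1229 and 1132 bp in IFE, and 0 and 0 bp in HF. Col28a1 had a peak at 3 and 4 of 6 regions in TD, 5 and 3 in IFE, and 1 and 1 in HF.

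The type VI genes Col6a6, Col6a5 and Col6a4 lie next to each other on chromosome 9, and the neighbours differed in direction. Col6a6 had a peak at 1 and 3 of 6 regions in TD, 1 and 3 in IFE, and 5 and 6 in HF. Col6a5 had a peak at 4 and 4 of 5 regions in TD, 4 and 4 in IFE, and 2 and 2 in HF. Col6a4 had a peak at 2 and 2 of 5 regions in TD, 4 and 3 in IFE, and 0 and 1 in HF. None of the 3 promoter windows had a peak in any library. The share of Col6a5 regions open in TD and closed in HF was 60.0%, reached by 26 of the 4140 genes, itself included. Of the regions behind this share, chr9:105968598-105969424 and chr9:105974017-105974657 lay outside Col6a5, between it and Col6a4. The Col6a4 regions of this kind, chr9:105980876-105982210 and chr9:105984935-105985584, lay in the same gap. These regions were divided between the neighbours by distance alone.

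FACIT genes other than Col14a1 had smaller net counts. Col12a1 had a peak at 4 and 7 of 9 regions in TD, 7 and 3 in IFE, and 6 and 6 in HF, so its IFE libraries lay on both sides of the HF values. Col16a1 had a peak at 7 and 8 of 9 regions in TD, 7 and 8 in IFE, and 5 and 8 in HF. Col19a1 had a peak at 5 and 7 of 8 regions in TD, 7 and 6 in IFE, and 6 and 3 in HF, with peaks of IFE libraries alone over the promoter window printed above. The region that overlaps this window, chr1:24586403-24587666, had peaks in 5 of 6 libraries, covering 514 and 784 bp in TD, 1264 and 1078 bp in IFE, and 364 and 0 bp in HF. Peaks near this window were therefore not confined to IFE, and those of TD and of HF replicate 1 ended short of it. The region lies inside the gene span and does not reach the gene start at 24587922. Col9a1, a cartilage collagen gene, had a peak at 0 and 1 of 2 regions in TD, 2 and 2 in IFE, and 0 and 0 in HF. Col13a1, Col22a1, Col25a1, Col9a2 and Col9a3 had 1 region each.

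As a class the other collagens had 9 of 104 regions open in TD and closed in IFE (8.65%, background 4.48%) and 3 the reverse (2.88%, background 1.82%). Between TD and HF, 15 were open in TD and closed in HF (14.4%, background 8.02%) and 10 the reverse (9.62%, background 7.26%). Between IFE and HF, 18 were open in IFE and closed in HF (17.3%, background 9.91%) and 19 the reverse (18.3%, background 12.8%). Without TD replicate 1 the counts open in TD were 16 against IFE and 23 against HF, and without TD replicate 2 the counts closed in TD were 8 and 19. Without IFE replicate 1 the counts between TD and IFE were 14 and 6, without IFE replicate 2 the count closed in TD and open in IFE was 10 and that open in IFE and closed in HF 30, and without HF replicate 1 the count closed in TD and open in HF was 16.

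**Figure D4:**
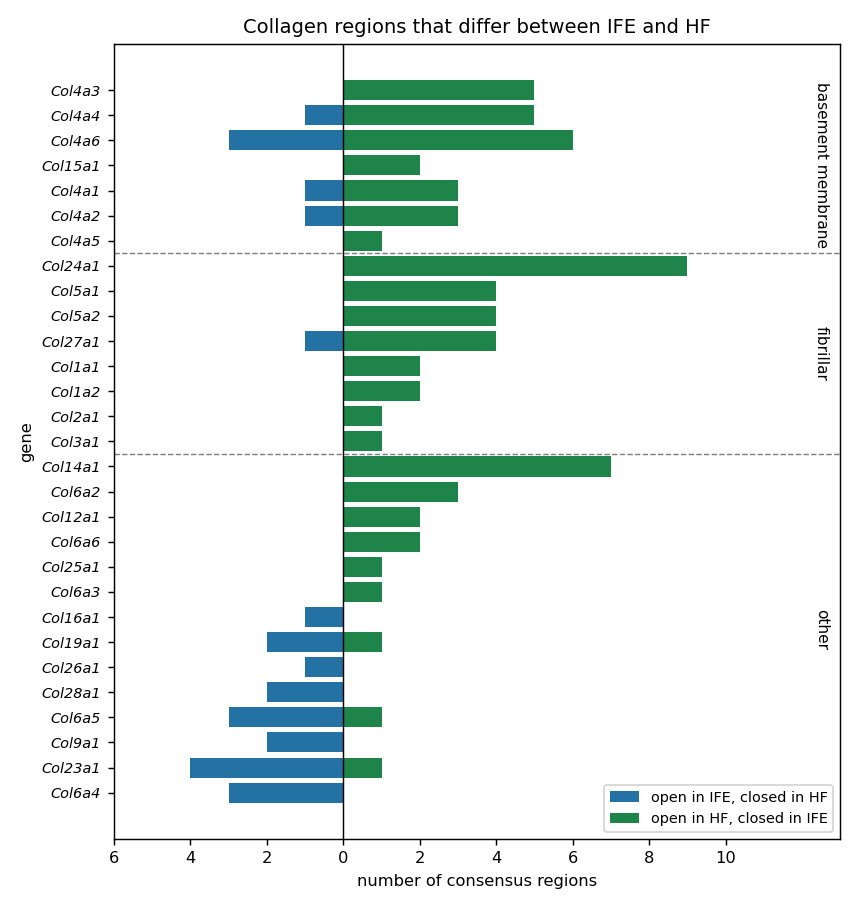
For each collagen gene with a region that differed between IFE and HF, bars give the number of regions open in IFE and closed in HF (left) and open in HF and closed in IFE (right), with the genes grouped by class. Col24a1 with 9 and Col14a1 with 7 have the longest bars to the right and Col23a1 with 4 the longest to the left, and all 8 fibrillar genes point mainly to the right.

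For all collagens together, 28 regions were open in TD and closed in IFE (10.8%, background 4.48%) and 4 the reverse (1.54%, background 1.82%). They favoured TD at 16 genes and IFE at 3, with 21 even. Between TD and HF, 18 were open in TD and closed in HF (6.95%, background 8.02%) and 31 of 259 the reverse (background 7.26%), favouring TD at 9 genes and HF at 15. Between IFE and HF, 25 were open in IFE and closed in HF (9.65%, background 9.91%) and 71 the reverse (27.4%, background 12.8%), favouring IFE at 8 genes and HF at 21. The shares open in TD against HF, open in IFE against TD and open in IFE against HF were thus near the background. The tallies of genes have no background over all genes. The background regions themselves leaned to TD over IFE and to HF over IFE. The count of 28 was 50 without TD replicate 1, 17 with peaks required to cover at least 50% of a region, and 2 with the wider 50% of peaks. Without TD replicate 2 the count closed in TD and open in IFE was 17 and that closed in TD and open in HF 54. The count closed in TD and open in IFE was 8 without IFE replicate 1 and 13 without IFE replicate 2, the count open in TD and closed in HF was 34 without TD replicate 1, and that open in IFE and closed in HF was 41 without IFE replicate 2.

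The TD state of the 71 regions open in HF and closed in IFE differed between the TD libraries. TD replicate 1 had a peak at 27 of them (38.0%) and TD replicate 2 at 40 (56.3%), against 27.4% and 49.5% of the 8029 such regions over all genes. Both had a peak at 25 (35.2%, background 25.6%), neither at 29, TD replicate 2 alone at 15 and TD replicate 1 alone at 2. Of the 8029 regions over all genes, neither had a peak at 3909, TD replicate 2 alone at 1919 and TD replicate 1 alone at 143. The difference between the TD libraries was therefore also present over all genes.

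Where TD and HF were both open and IFE closed, TD peaks covered fewer bases. Peak length here means the bases of a region covered by a library's peaks, with separate peaks in a region added up. Peak length was not itself a criterion for these regions, but presence and length come from the same peak calls, so the choice may bear on length. At the 25 collagen regions of this kind the median of the mean peak length was 656 bp in TD and 1104 bp in HF, and 24 of 25 were shorter in TD. The medians by library were 507 and 796 bp in TD, and 1130 and 1012 bp in HF, which did not overlap. The exception was the Col24a1 region at chr3:145507250-145508045, with 522 and 782 bp in TD, and 625 and 583 bp in HF. At the Col4a3 region chr1:82597181-82599369 the TD libraries disagreed, with 329 and 2088 bp in TD, and 2189 and 2078 bp in HF. Over all 2058 regions of this kind near protein-coding genes 88.2% were shorter in TD, with medians of 638 bp in TD and 904 bp in HF, so the collagen share of 96.0% lay near the background. At the 14 collagen regions open in TD and IFE and closed in HF, 9 were shorter in TD than in IFE (64.3%, background 68.3%). At the 80 collagen regions open in all 6 libraries the medians were 1064 bp in TD, 1084 bp in IFE and 1011 bp in HF.

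**Figure D5:**
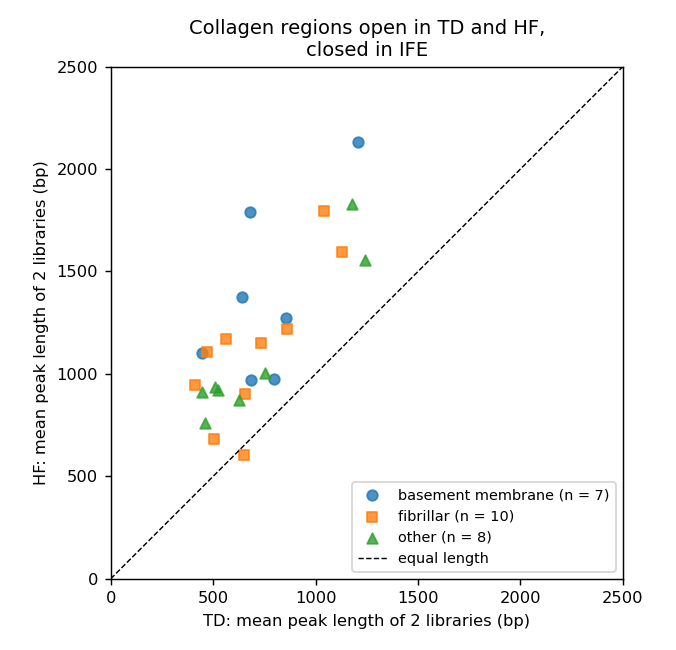
Mean peak length of the 2 TD libraries (x axis, bp) is plotted against that of the 2 HF libraries (y axis, bp) for the 25 collagen regions open in TD and HF and closed in IFE, with symbols for the 3 classes and a dashed line of equal length. Peak length is the bases of a region covered by a library's peaks. All points but 1, a fibrillar region of Col24a1, lie above the line, so peaks were shorter in TD at 24 of 25.

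Promoter windows were also compared on their own. Of the 44 genes 35 had a RefSeq promoter window, 38 windows in all, and 10 windows had a peak in all 6 libraries (26.3%, background 51.1%) while 17 had none in any (44.7%, background 42.9%). A peak was present at 15 and 18 windows in TD, 15 and 13 in IFE, and 20 and 18 in HF. Of the 10 windows open in every library, 7 belonged to basement membrane genes, 1 to the fibrillar gene Col5a1 and 2 to the other collagens Col16a1 and Col23a1. The Col1a2 window and 1 of the 2 Col6a2 windows were open in TD and HF and closed in IFE (2 of 38, 5.26%, background 0.212%). The other Col6a2 window, chr10:76623581-76623880, had a peak in TD replicate 2 and both HF libraries. The Col4a4 window was open in HF alone (1, background 0.470%) and that of Col19a1 in IFE alone (1, background 0.146%). No collagen window was open in TD and IFE and closed in HF (background 0.480%), in TD alone (background 0.0235%) or in IFE and HF with TD closed (background 0.0564%), and at 7 the libraries of a population disagreed (18.4%, background 4.69%). Most collagen regions lay inside gene spans, 203 of 259 (78.4%), against 69.5% of all gene-assigned regions. Of the 71 regions open in HF and closed in IFE, 56 lay inside gene spans and 15 outside.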

How the data were processed

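The data were 6 peak lists, 1 per ATAC-seq library, with 2 libraries each of touch dome, IFE and HF cells sorted from mouse back skin. Each deposited list gives chromosome, start, end and name of the authors' peaks, with no score or read count, and each was called per library, so a list's length may move with depth, which is unknown. The submitters' processing notes name Trim Galore 0.6.7, Bowtie2 2.4.5, SAMtools 1.9, MACS2 2.2.7.1 and build mm10. Their settings, filters, any transposase shift and the cutoff for peaks: not given in the sources used here.

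Peaks sharing at least 1 bp were merged into regions. Each went to the nearest of 21900 protein-coding gene entries of the RefSeq table (GRCm38.p6) within 50 kb, with ties going to the larger overlap, then the shorter span. No exon or intron annotation was used. Gene strand came from the RefSeq promoter table and is missing for 9 of the 44 genes. Shares of regions with a peak were compared with two-sided exact permutation tests over libraries. Counts of regions open in both libraries of a population and neither of another had no test and were read against all gene-assigned regions, which include regions close to each other. Counts of genes by direction had no such background.

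Values per library were given for the 5 genes of each class with the most regions, up to 5 genes per comparison and direction by net count, and Col17a1, Col7a1, Col4a1 and Col4a2. Other genes, single regions, motifs and the printed promoters were chosen after their values were seen. The members and lists were chosen with earlier results of these data known. The region builder and gene assignment were tested on simulated data. Computation used Python 3.11.15 and NumPy 2.4.6. Other settings tried were a peak cover of 50%, merging within 100 bp, gene windows of 10 and 100 kb, the wider 50% of peaks, equal numbers of the widest peaks, ties given to the collagen gene, leaving out each library, a replicate block and, added after the data were seen, leaving out Col24a1.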

Additional observations from a re-analysis of the deposited data

How the results depend on the processing

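The share of regions with a peak kept its direction under every setting tried for all collagens, the basement membrane class and the fibrillar class, in all 3 comparisons, and 0.333 is the smallest p that 2 libraries against 2 allow. Its size did not always hold. With the wider 50% of peaks, TD minus IFE was 2.24 points for all collagens (main 10.6), 5.26 for basement membrane (main 9.22) and 5.36 for fibrillar (main 26), TD minus HF was -4.39 for basement membrane (main -9.22), and IFE minus HF was -11.9 for all (main -18.9) and -9.65 for basement membrane (main -18.4). With a peak cover of 50%, TD minus IFE was 6.37 for all and 17.3 for fibrillar, and TD minus HF -13.7 for all (main -8.30). With equal peak numbers TD minus IFE was 7.05 for all. Merging within 100 bp and giving ties to the collagen gene moved no share. Leaving out 1 library at a time, TD minus IFE ranged from 2.76 to 18.5 for all collagens and 2.0 to 16.5 for basement membrane, and TD minus HF from -16.5 to -0.386 and -17.0 to -1.94. The fibrillar difference ranged from 19.2 to 32.7 percentage points for TD minus IFE, -35.6 to -22.1 for TD minus HF and -61.5 to -52.9 for IFE minus HF. The difference for the other collagens was smaller than the spread between libraries and turned its sign. For TD minus IFE (main 4.33 points) it was -3.06 with the wider 50% of peaks and -1.63 with the widest peaks in equal number per library. For TD minus HF (main 2.88) it was -2.88 with a peak cover of 50% and -2.04 with the wider 50%. For IFE minus HF (main -1.44) it was 1.02 with the wider 50% and 5.98 with equal numbers. With 1 library left out it ranged from -4.90 to 13.5, from -6.37 to 12 and from -6.63 to 4.29 in these comparisons. The cause was not tested.

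With 1 library left out the collagen counts ranged from 30 to 50 open in TD and closed in IFE, 4 to 17 the reverse, 19 to 34 open in TD and closed in HF, 33 to 54 the reverse, 26 to 41 open in IFE and closed in HF and 77 to 88 the reverse, since fewer libraries loosen the rule. With a peak cover of 50%, 17 regions were open in TD and closed in IFE. With a window of 10 kb 1 was closed in TD and open in IFE, and with equal peak numbers 10 were. With the wider 50% of peaks, which leaves fewer regions, 2 were open in TD and closed in IFE, 9 open in TD and closed in HF, 19 the reverse, 14 open in IFE and closed in HF and 28 the reverse. Among single genes the net count changed sign for Col27a1 (-1, TD minus HF) and Col5a1 (1 against HF for both TD and IFE) with the wider 50%, and for Col4a6 (-1, TD minus IFE, and 1, TD minus HF) and Col4a2 (1, IFE minus HF) with equal numbers. Without a library it did so for Col4a6 (2, TD minus HF, without TD replicate 1, and -2, TD minus IFE, without TD replicate 2), Col27a1 (-2, TD minus HF, without TD replicate 2), Col12a1 (-1, TD minus IFE, and 1, IFE minus HF, without IFE replicate 2) and Col4a1 (1, TD minus HF, without HF replicate 1). Leaving out each library, the Col4a6 net count ranged from -2 to 5 for TD minus IFE and from -3 to 2 for TD minus HF, and that of Col12a1 from -3 to 1 for IFE minus HF.

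Nothing in the labels says that equal replicate numbers pair the libraries, and same-numbered libraries hardly deviated together (correlations over gene-assigned regions of 0.051 for TD and IFE, 0.005 for TD and HF and 0.060 for IFE and HF). A replicate block leaves the differences as they were, at 10.6, -8.30 and -18.9 points for all collagens in the 3 comparisons, 9.22, -9.22 and -18.4 for basement membrane, 26, -28.8 and -54.8 for fibrillar and 4.33, 2.88 and -1.44 for other collagens, and an exact sign-flip test over 2 pairs cannot give p below 0.5.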

Other observations

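Genes that make, bind and degrade collagen were listed beside the collagens themselves. The 32 genes of collagen enzymes and chaperones had 118 regions at 30 genes, with a peak at 74 and 87 in TD, 77 and 70 in IFE, and 86 and 88 in HF. Set IFE against HF, 9 of these regions were open in IFE and closed in HF (7.63%, against 9.91% of all gene-assigned regions) and 18 the reverse (15.3%, against 12.8%), so both shares lay near the background. Of the 18, 3 were at Loxl1, a lysyl oxidase gene of crosslinking. Loxl1 had a peak at 2 and 3 of 6 regions in TD, 2 and 2 in IFE, and 6 and 5 in HF. Loxl2 and Pcolce had no region in any library, and P4hb, Plod2, Plod3, P3h3, Ppib and Loxl3 had 1 region each, with a peak in every library.

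The 9 collagen receptor genes had a peak at 47 and 50 of 65 regions in TD, 53 and 53 in IFE, and 40 and 41 in HF. Of the receptor regions, 14 were open in IFE and closed in HF (21.5%, against 9.91% of all gene-assigned regions) and 4 the reverse (6.15%, against 12.8%). Ddr2, the gene of a receptor tyrosine kinase for fibrillar collagen, had a peak at 9 and 9 of 12 regions in TD, 10 and 11 in IFE, and 4 and 6 in HF. Itga2, an integrin subunit of keratinocytes that binds collagen, had a peak at 8 and 8 of 10 regions in TD, 7 and 7 in IFE, and 4 and 4 in HF. Itga11, the subunit of a fibrillar collagen receptor, had a peak at 4 and 5 of 7 regions in TD, 4 and 5 in IFE, and 7 and 7 in HF. The 8 genes listed for collagen degradation, not all of them proteases, had a peak at 21 and 22 of 23 regions in TD, 19 and 18 in IFE, and 15 and 17 in HF. Between TD and HF, 5 were open in TD and closed in HF (21.7%, background 8.02%) and 0 the reverse (background 7.26%). Between IFE and HF, 5 were open in IFE and closed in HF (21.7%, background 9.91%) and 2 the reverse (8.70%, background 12.8%). The single region of the collagenase gene Mmp13 was open in TD alone (background 0.967%).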
